A study of Mus musculus with 3 samples.

Results

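The release machinery of the hair cell ribbon synapse is represented here by 9 genes, *Cacna1d*, *Cacnb2* and *Cabp2* of the calcium channel, *Ctbp2*, *Bsn* and *Rims2* of the ribbon and active zone, and *Otof*, *Slc17a8* and *Dnajc5b* of the vesicle. They were chosen by name, and all 9 symbols were found among the 32285 genes of the deposited feature tables. Their UMIs (unique molecular identifiers, which count captured RNA molecules) were read in barcodes with 200 to 6000 detected genes and at most 15% mitochondrial UMIs, 14378 of 32657 barcodes in all. The libraries came from dissociated cochlear tissue of C57/B6 mice, with no treatment or genetic change named for any of them, and the tissue was mostly of the upper basal to apical turns. Postnatal day 14 (P14) had 1 library and P28 had 2, called replicates 1 and 2. They held 10125255, 35485894 and 37530956 UMIs. Each library pooled 14 cochleae of 7 mice, so the spread between libraries is not the spread between mice, and a difference between the ages has no replicate check at P14.

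Cells were clustered without these genes or any other listed release gene, and a cluster was named from marker genes, with the ending "-like". Inner hair cell (IHC)-like cells numbered 60 at P14 and 112 and 76 in the P28 replicates, outer hair cell (OHC)-like cells 277, 367 and 285, and spiral ganglion neuron (SGN)-like cells 334 and 296 at P28. No P14 cluster was SGN-like. All cells outside the hair cell clusters, called other cells below, numbered 1325, 5172 and 6704 and include the SGN-like cells. Levels are CPM, UMIs scaled to the same total in each sum of cells. The 8 OHC markers together reached 39324, 24177 and 24277 CPM in the OHC-like class, against 998, 498 and 592 among IHC-like cells. For the 8 IHC markers the sums were 8668, 7020 and 7124 CPM in the IHC-like class, against 2175, 1471 and 1467 among OHC-like cells. *Fgf8*, an IHC marker, had no UMI in the IHC-like cells of either P28 library. A typical IHC-like cell had 1025.5 UMIs at P14 (median) and 9411 and 8007.5 at P28, so the P14 IHC-like cells were shallow. For OHC-like cells the medians were 6510, 5251 and 3754 UMIs, for SGN-like cells 9116 and 12656.5, and for the other cells 2067, 2239 and 1942.5. Within the limits, pairs of libraries shared 4, 7 and 10 barcodes.

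Hair cells turn sound into graded changes of membrane voltage and release glutamate continuously at ribbon synapses onto the dendrites of spiral ganglion neurons. The ribbon is an electron-dense body that holds vesicles above clusters of L-type calcium channels, and the opening of these channels triggers fusion. The inner hair cell drives most afferent fibres, while the outer hair cell acts mainly as a mechanical amplifier. Loss of several of these genes, among them *Otof*, *Slc17a8*, *Cabp2* and *Cacna1d*, impairs hearing.

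Sequence before the start of the ribbon form of *Ctbp2* (start 2) is shown because that start tells it from the gene's other forms, beside another RefSeq start of *Ctbp2* (start 1), which is not that of the CtBP2 transcript described below, and beside *Slc17a8* and *Cabp2* as genes with different levels in the hair cell classes. RefSeq promoter entries (GRCm38.p6) were present for 6 of the 9 genes in 11 windows, with none for *Otof*, *Rims2* and *Dnajc5b*. Each window holds the 250 bases before a transcription start and reads 5′ to 3′ on the gene's strand. Capitals mark ATTAAT, the core of a POU IV binding site.
*Ctbp2* start 2, chr7:133015248-133015497, minus strand: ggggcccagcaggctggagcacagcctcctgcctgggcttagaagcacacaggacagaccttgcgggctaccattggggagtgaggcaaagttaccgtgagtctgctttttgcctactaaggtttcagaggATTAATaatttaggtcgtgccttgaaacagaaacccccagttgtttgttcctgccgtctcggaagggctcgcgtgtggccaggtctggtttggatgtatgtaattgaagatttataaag
*Ctbp2* start 1, chr7:133081861-133082110, minus strand: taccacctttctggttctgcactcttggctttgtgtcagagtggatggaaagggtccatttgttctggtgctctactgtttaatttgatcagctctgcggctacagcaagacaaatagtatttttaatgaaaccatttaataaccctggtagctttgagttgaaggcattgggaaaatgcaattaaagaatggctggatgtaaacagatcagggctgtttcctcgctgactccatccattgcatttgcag
*Slc17a8* start 1, chr10:89621250-89621499, minus strand: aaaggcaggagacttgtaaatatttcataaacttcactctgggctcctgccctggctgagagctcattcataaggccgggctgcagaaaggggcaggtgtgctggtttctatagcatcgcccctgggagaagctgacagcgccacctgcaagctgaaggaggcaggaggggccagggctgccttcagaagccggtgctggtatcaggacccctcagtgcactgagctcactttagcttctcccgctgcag
*Cabp2* start 1, chr19:4082238-4082487, plus strand: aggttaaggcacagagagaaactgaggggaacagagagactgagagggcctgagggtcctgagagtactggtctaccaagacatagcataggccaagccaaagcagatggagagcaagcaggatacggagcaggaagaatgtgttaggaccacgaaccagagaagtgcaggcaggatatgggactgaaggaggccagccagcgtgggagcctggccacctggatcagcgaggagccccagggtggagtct
ATTAAT was found in 2 of the 11 windows, against 4.4% of all 32851 promoter windows, and CAGCTG, an E-box, in 3 of the 11, against 13%. Both read the same on either strand, and a match describes letters only.

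The gene models lie in GRCm38 (GENCODE M21) at chr14:30039939-30491455 for *Cacna1d*, chr2:14603088-14987908 for *Cacnb2*, chr19:4081578-4087340 for *Cabp2*, chr7:132987563-133124354 for *Ctbp2*, chr9:108096022-108190384 for *Bsn*, chr15:39198261-39684372 for *Rims2*, chr5:30367062-30461932 for *Otof*, chr10:89574020-89621253 for *Slc17a8* and chr3:19508595-19610862 for *Dnajc5b*. The 3′ kit counts RNA near its polyadenylated end, which matters for *Ctbp2*. The transcript Ctbp2-214, whose start lies beside the first window above, codes for the 987 residues of RIBEYE, the scaffold of the ribbon, while Ctbp2-201 codes for the 444 residues of the co-repressor CtBP2. Their starts lie 108.1 kb apart and their 3′ ends 43 bases apart, so these counts cannot tell the forms apart. A gene on the opposite strand covers the 3′ end of *Cacna1d* (*Chdh*) and of *Dnajc5b* (*1700064H15Rik*). A same-strand model of *Fgfr2* also spans that of *Ctbp2*, so reads there may be shared or dropped in counting.

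The 9 genes showed several patterns. *Otof*, *Slc17a8*, *Dnajc5b* and *Rims2* were far higher in IHC-like than in OHC-like cells. *Cabp2* was high in both and somewhat higher in IHC-like cells, while *Cacna1d* was higher in OHC-like cells. *Ctbp2* and *Cacnb2* were not called between the hair cell classes, and *Bsn* was low in both and stood highest in SGN-like cells at P28. Each class was pooled within a library, and its level is given for P14 and then P28 replicates 1 and 2, with exact 95% Poisson intervals in brackets that cover counting error only. Levels are compared between classes and not between genes, since 3′ counts are not scaled to a gene's length.

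**Figure D1:**
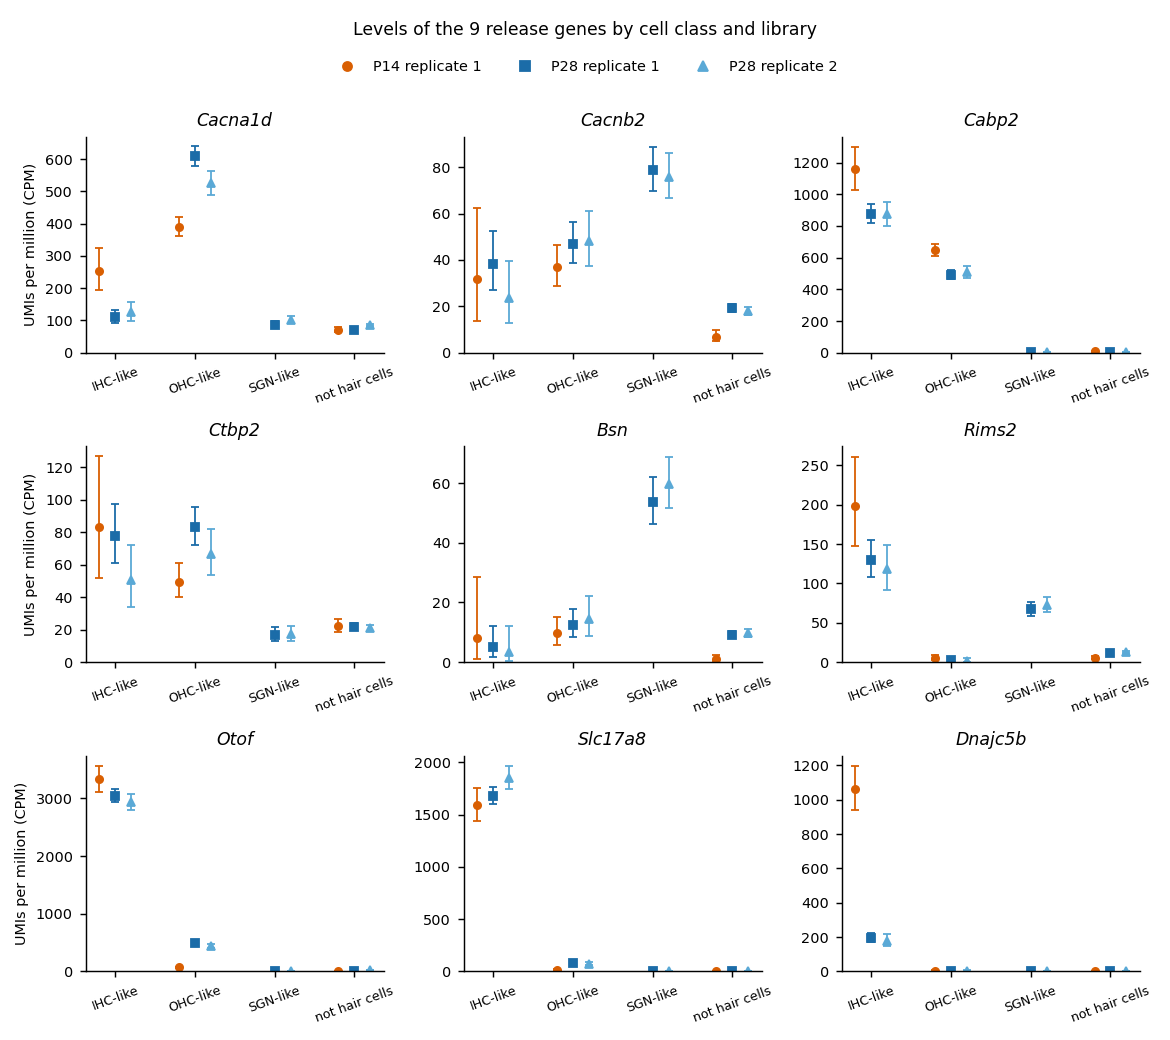
Level of each of the 9 genes (CPM, vertical axis) in IHC-like, OHC-like, SGN-like and other cells, with a point for each library and exact 95% Poisson intervals. Otof, Slc17a8, Dnajc5b and Rims2 are highest in IHC-like cells in each library, Cacna1d in OHC-like cells, and Bsn and Cacnb2 in SGN-like cells at P28.

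*Cacna1d* codes for the pore of the L-type channel Cav1.3, which carries the calcium current that triggers release. Its level in OHC-like cells was 390.1 CPM [362 to 419], 609 [579 to 640.4] and 525 [488 to 564]. In IHC-like cells it was 254 CPM [195 to 324], 111 [90.6 to 134] and 126 [99.2 to 158]. The hair cell classes did not overlap, and IHC-like cells were lower in 3 of 3 libraries. Tympanic border cell (TBC)-like cells, from the underside of the basilar membrane, had 162 CPM, 142 and 155, with intervals that overlapped those of IHC-like cells in each library. SGN-like cells had 87.1 CPM and 101 and the other cells together 71.1 CPM, 70.8 and 86.4.

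*Cacnb2* codes for the auxiliary β2 subunit, which brings the channel to the membrane. In IHC-like cells its level was 31.7 CPM [13.7 to 62.4], 38.2 [26.9 to 52.7] and 23.5 [12.9 to 39.5], from 8, 37 and 14 UMIs. OHC-like cells had 36.8 CPM [28.6 to 46.5], 46.96 [38.8 to 56.3] and 48.1 [37.2 to 61.02]. Within each library the intervals of the hair cell classes overlapped. SGN-like cells stood above both, at 78.9 CPM [69.8 to 88.9] and 75.9 [66.7 to 86.05]. At P14 fibroblast-like cells had 41.3 CPM [24.9 to 64.5] and Reissner's membrane (RM)-like cells 47.5 [15.4 to 111], the latter from 5 UMIs. Both values lay above those of the hair cell classes, with intervals that overlapped theirs. RM-like cells had 32.6 CPM [22.9 to 44.9] and 21.0 [12.8 to 32.5] at P28, with intervals that overlapped those of IHC-like cells.

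*Cabp2* codes for a calcium-binding protein that limits inactivation of the channel. Its level was 1157 CPM [1028 to 1297], 877 [819 to 938] and 875 [801 to 953] in IHC-like cells. OHC-like cells had 647 CPM [611 to 684], 491 [464 to 519] and 506 [469.7 to 545]. The hair cell classes did not overlap, and the next class had 25.7 CPM at P14 and 18.9 and 19.1 at P28. SGN-like cells, at 4.68 CPM and 2.78, lay in the range of the other cells, at 7.54 CPM, 4.64 and 3.89.

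*Ctbp2*, counted over both of its forms, stood at 83.2 CPM [51.5 to 127], 77.5 [60.9 to 97.1] and 50.5 [34.04 to 72.03] in IHC-like cells. OHC-like cells had 49.6 CPM [40.01 to 60.7], 83.1 [72.2 to 95.2] and 66.7 [53.8 to 81.7]. The hair cell classes overlapped, and both lay above SGN-like cells, at 16.9 CPM and 17.3, and above the other cells together, at 22.1 CPM, 21.7 and 20.9. In P28 replicate 2 bone cell-like cells had the highest value, 72.9 CPM from 8 UMIs, with an interval that overlapped that of OHC-like cells. Schwann and satellite glial cell-like cells had 65.5 CPM there, from 6 UMIs, and fibroblast-like cells had 43.5 CPM at P14, from 20 UMIs. Their intervals overlapped those of both hair cell classes.

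*Bsn* codes for Bassoon, the scaffold that anchors the ribbon to the active zone. Only 2, 5 and 2 UMIs were found in IHC-like cells, which gives 7.92 CPM [0.96 to 28.6], 5.16 [1.68 to 12.1] and 3.36 [0.407 to 12.2]. OHC-like cells had 9.59 CPM [5.69 to 15.2], 12.4 [8.45 to 17.7] and 14.3 [8.76 to 22.2], from 18, 31 and 20 UMIs. SGN-like cells lay above both, at 53.8 CPM [46.3 to 62.1] and 59.9 [51.8 to 68.9]. The other cells without the SGN-like cells held 1.13 CPM, 0.564 and 0.664.

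*Rims2* codes for RIM2, an active zone protein that links vesicles to calcium channels. IHC-like cells had 198 CPM [147 to 261], 130.1 [108 to 155] and 118 [91.8 to 149]. OHC-like cells had 4.80 CPM [2.19 to 9.11], 2.81 [1.13 to 5.79] and 1.43 [0.174 to 5.18], from 9, 7 and 2 UMIs. The ratio of IHC-like to OHC-like cells was 41.3 [20.1 to 95.5], 46.3 [21.8 to 118] and 82.1 [21.9 to 691]. SGN-like cells came next after IHC-like cells at P28, at 67.5 CPM [59.1 to 76.8] and 72.9 [63.9 to 82.8]. At P14 Deiters and pillar cell-like cells came next, at 32.5 CPM [17.8 to 54.6] from 14 UMIs, above OHC-like cells.

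*Otof* codes for otoferlin, a calcium sensor for fusion and for the refilling of release sites. Its level in IHC-like cells was 3328 CPM [3106 to 3561], 3045 [2936 to 3157] and 2935 [2799 to 3076]. In OHC-like cells it was 69.8 CPM [58.4 to 82.9], 492 [465 to 520.0] and 437 [403 to 473]. The classes lay apart in each library, with ratios of 47.7 [39.6 to 57.7], 6.19 [5.79 to 6.62] and 6.72 [6.12 to 7.38]. SGN-like cells had 5.55 CPM and 5.25 and the other cells 5.09 CPM, 8.99 and 19.1.

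*Slc17a8* codes for VGLUT3, the transporter that fills hair cell vesicles with glutamate. IHC-like cells had 1593 CPM [1441 to 1756], 1681 [1601 to 1765] and 1852 [1744 to 1964]. OHC-like cells had 15.99 CPM [10.8 to 22.8], 78.3 [67.7 to 90.1] and 76.02 [62.2 to 91.9]. The ratio between them was 99.6 [68.7 to 149.6], 21.5 [18.5 to 25.1] and 24.4 [19.9 to 30.02]. At P14 the interval of OHC-like cells overlapped that of fibroblast-like cells, which had 19.6 CPM [8.94 to 37.1]. SGN-like cells had 2 and 1 UMIs.

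*Dnajc5b* codes for cysteine string protein β, a relative of a vesicle chaperone of neurons. In IHC-like cells its level was 1062 CPM [938 to 1197], 196 [169 to 226] and 178 [146 to 216]. OHC-like cells had 4.26 CPM, 4.42 and 2.15, from 8, 11 and 3 UMIs. The P14 value in IHC-like cells stood above both P28 values, and all 3 stood above every other class. SGN-like cells had 1 and 0 UMIs, of which the latter allows up to 0.926 CPM at a floor of 3 counts.

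Inner and outer hair cells were set against each other on 6 sums, in edgeR's quasi-likelihood model with a term for the library. At an adjusted p under 0.05, IHC-like cells had 17% of the 9484 tested genes above OHC-like cells and 16.8% below, 33.8% in all. Of the 9 members, all of which passed the filter on low counts, 5 were higher (*Dnajc5b*, *Rims2*, *Slc17a8*, *Otof* and *Cabp2*), 2 were lower (*Cacna1d* and *Bsn*) and 2 were not called (*Cacnb2* and *Ctbp2*). All 3 vesicle genes were higher, while the 3 channel genes, like the 3 genes of the ribbon and active zone, gave 1 higher, 1 lower and 1 not called. The median log2 fold change was 0.68 over the members and -0.05 over all genes tested.

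The log2 fold change of IHC-like over OHC-like cells was 6.61 (SE 0.37, adjusted p = 2.49e-06) for *Dnajc5b*, by edgeR with Benjamini-Hochberg adjustment. It was 5.42 (SE 0.26, adjusted p = 1.16e-06) for *Rims2* and 4.94 (SE 0.38, adjusted p = 1.16e-05) for *Slc17a8*. These genes were higher in 3 of 3 libraries, as was *Otof*, at 3.39 (SE 0.50, adjusted p = 0.000676). *Cabp2* differed by 0.68 (SE 0.13, adjusted p = 0.0031), with ratios of 1.79, 1.79 and 1.73. Its call was lost without P28 replicate 1 (0.68, adjusted p = 0.0929), without P28 replicate 2 (0.69, adjusted p = 0.0555) and without the library term, the replicate block (adjusted p = 0.107).

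*Cacna1d* differed the other way, by -1.90 (SE 0.31, adjusted p = 0.0011), and was lower in 3 of 3 libraries. *Bsn* was lower by -1.45 (SE 0.49, adjusted p = 0.0467), on few UMIs, and its call was lost without P28 replicate 2 (-1.11, adjusted p = 0.332), without the replicate block (adjusted p = 0.0621) and in DESeq2 (adjusted p = 0.261). *Cacnb2* differed by -0.65 (SE 0.24, adjusted p = 0.0656) and passed without P14 replicate 1 (-0.66, adjusted p = 0.0148). Over the main and alternative settings that tested them, *Bsn* was called in 6 of 11 and *Cacnb2* in 3 of 13. For *Ctbp2* the value was -0.14 (SE 0.23, adjusted p = 0.672), with ratios of 1.68 [0.993 to 2.72], 0.932 [0.706 to 1.22] and 0.756 [0.484 to 1.15].

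**Figure D2:**
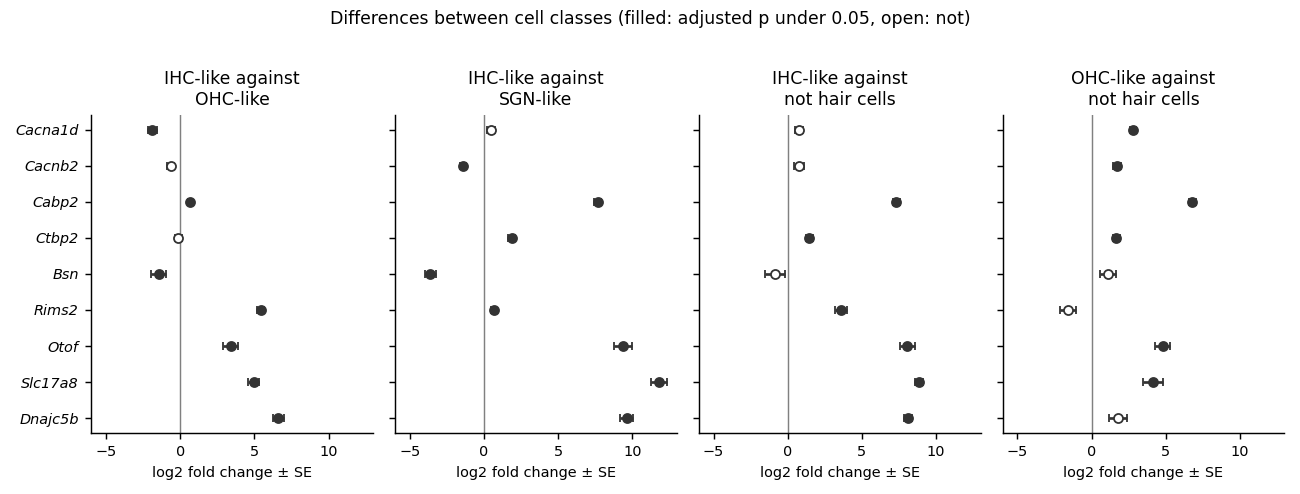
Log2 fold change of the 9 genes in the 4 comparisons of cell groups, with bars of 1 SE from edgeR and filled points where the adjusted p was under 0.05. Otof, Slc17a8 and Dnajc5b lie far to the right in the comparisons of IHC-like cells, Cacna1d lies at -1.90 against OHC-like cells and Bsn at -3.61 against SGN-like cells.

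The inner hair cell was then set against the neuron it contacts, whose own terminals in the brainstem release glutamate without ribbons. Among the 12110 tested genes, 27.2% stood above and 34.6% below the SGN-like level at an adjusted p under 0.05, 61.8% in all. Of the 9 members, 6 were higher, 2 were lower (*Bsn* and *Cacnb2*) and *Cacna1d* was not called. The median was 1.87 over the members and -0.15 over all genes tested.

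On the log2 scale *Otof* was higher by 9.38 (SE 0.61, adjusted p = 2.3e-10) in edgeR and *Cabp2* by 7.67 (SE 0.23, adjusted p = 3.39e-14). For *Slc17a8* the ratio to SGN-like cells, with their 2 and 1 UMIs, was 2877 [795 to 23780] and 5998 [1074 to 237100]. *Dnajc5b* was 672 [119 to 26660] times higher in P28 replicate 1 and at least 192-fold higher in P28 replicate 2, against a floor of 3 counts in that library (lower 95% counting limit 154). The ribbon gene *Ctbp2* was higher by 1.87 (SE 0.24, adjusted p = 2.52e-06), in 2 of 2 libraries.

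*Rims2* was present in both cell types and differed by 0.64 (SE 0.16, adjusted p = 0.00192) on the log2 scale in edgeR. The ratios of CPM within the P28 libraries were 1.93 [1.54 to 2.40] and 1.62 [1.22 to 2.12], both larger than the fitted difference. Fold changes in this comparison come from a fit with a library term that also holds the P14 and OHC-like sums. They need not equal the ratios within a library, and the source of the gap was not tested. With a P28 library left out, SGN-like cells are a single sum that is assumed to vary like the other classes. The call was lost without P28 replicate 1 (0.46, adjusted p = 0.421), without P28 replicate 2 (0.73, adjusted p = 0.113) and in cells thinned to 1000 UMIs (0.40, adjusted p = 0.503). *Bsn* was lower in IHC-like cells by -3.61 (SE 0.34, adjusted p = 3.67e-08) and *Cacnb2* by -1.40 (SE 0.21, adjusted p = 1.19e-05). *Cacna1d* differed by 0.46 (SE 0.28, adjusted p = 0.155). Its value ran from 0.24 to 1.54 over the 15 main and alternative settings, of which 2 called it higher.

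Markers of other cell types were found in IHC-like cells, and 3 lists of supporting cells, given with the ages below, summed higher there at P28 than the SGN list. The 10 SGN markers summed to 329, 242 and 272 CPM there, to 51.7, 87.5 and 113 CPM in OHC-like cells and to 11076 and 10665 CPM in SGN-like cells. *Rims1* and *Rims4*, paralogs of *Rims2*, stood at 94.1 and 98.5 and at 70.1 and 69.8 CPM in SGN-like cells. In the IHC-like cells of the 3 libraries the former had 1 UMI (P28 replicate 1) and the latter 0 UMIs. The part of RNA from other cell types in the level of *Rims2* was not tested.

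IHC-like cells were next set against all cells other than hair cells, where 13.3% of the 12672 tested genes stood above and 22.3% below, 35.6% in all. Of the members 6 were higher, each in 3 of 3 libraries, and 3 were not called. The log2 fold changes in edgeR were 8.84 (SE 0.30, adjusted p = 6.59e-05) for *Slc17a8*, 8.07 (SE 0.27, adjusted p = 6.59e-05) for *Dnajc5b*, 8.07 (SE 0.50, adjusted p = 0.000154) for *Otof* and 7.33 (SE 0.26, adjusted p = 6.59e-05) for *Cabp2*. *Rims2* was higher by 3.59 (SE 0.39, adjusted p = 0.00095) and *Ctbp2* by 1.45 (SE 0.23, adjusted p = 0.00382), the latter not called without P28 replicate 1 (1.34, adjusted p = 0.0796). Over the 16 main and alternative settings, *Ctbp2* was called in 14. Those not called were *Cacna1d*, at 0.77 (SE 0.29, adjusted p = 0.08), *Cacnb2*, at 0.78 (SE 0.34, adjusted p = 0.125), and *Bsn*, at -0.85 (SE 0.69, adjusted p = 0.381). Without P14 replicate 1, *Cacna1d* (0.50, adjusted p = 0.000307) and *Cacnb2* (0.69, adjusted p = 0.0142) passed.

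In OHC-like cells all 3 channel genes were higher than in the other cells. Among the 13010 tested genes, 23.9% stood above and 29.9% below, 53.8% in all, and 6 members were higher. *Cabp2* was higher by 6.78 (SE 0.24, adjusted p = 0.000881) in edgeR, *Cacna1d* by 2.78 (SE 0.21, adjusted p = 0.00295) and *Cacnb2* by 1.72 (SE 0.25, adjusted p = 0.00894). *Otof* was higher by 4.81 (SE 0.51, adjusted p = 0.00517), *Slc17a8* by 4.12 (SE 0.66, adjusted p = 0.0112) and *Ctbp2* by 1.66 (SE 0.24, adjusted p = 0.00883). Leaving out P28 replicate 1 ended the calls of *Cacnb2* (adjusted p = 0.0546) and *Ctbp2* (0.0539), and leaving out P28 replicate 2 those of *Cacnb2* (0.0525) and *Slc17a8* (0.0514). *Dnajc5b*, at 1.76 (SE 0.59, adjusted p = 0.0645), *Bsn*, at 1.12 (SE 0.52, adjusted p = 0.134), and *Rims2*, at -1.60 (SE 0.56, adjusted p = 0.0714), were not called. Without P14 replicate 1 all 3 passed, *Dnajc5b* (2.51, adjusted p = 0.00102), *Bsn* (0.64, adjusted p = 0.0212) and *Rims2* (-2.26, adjusted p = 7.58e-08).

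*Bsn*, *Cacnb2* and *Rims2* are also genes of the SGN-like cells, which the other cells held at P28 and not at P14. With SGN-like cells left out of the other cells, a choice made after seeing the data, *Bsn* was higher in IHC-like cells (2.51, adjusted p = 0.01) and in OHC-like cells (3.93, adjusted p = 0.000999). *Cacnb2* was then higher in IHC-like cells (1.75, adjusted p = 0.000942), and so was *Cacna1d* (0.71, adjusted p = 0.0486). *Rims2* in OHC-like cells stood at 0.047 (edgeR, adjusted p = 0.94). The other cells without SGN-like cells had 1.47 and 1.94 CPM of *Rims2* at P28. They had 5.47 CPM at P14, where no cluster was SGN-like and no cell was left out.

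The ages are given side by side without a test, since P14 is a single library. In IHC-like cells the P28 level of *Otof* was 0.915 [0.847 to 0.989] and 0.882 [0.812 to 0.959] times the P14 level, and that of *Slc17a8* 1.06 [0.946 to 1.18] and 1.16 [1.04 to 1.31] times. *Dnajc5b* differed most, at 0.185 [0.153 to 0.223] and 0.168 [0.133 to 0.211] times its P14 level. *Cacna1d* stood at 0.436 [0.317 to 0.604] and 0.497 [0.352 to 0.706] times, with the ages closer in shallow than in deeper cells, as given below. A minority of deep cells held most UMIs of the P14 class, so its pooled levels rest mostly on them. *Rims2* was at 0.657 [0.470 to 0.931] and 0.594 [0.408 to 0.872] times its P14 level and *Cabp2* at 0.758 [0.663 to 0.869] and 0.756 [0.654 to 0.875] times. Marker lists moved with age in the same class. The 12 hair cell markers summed to 12360, 6779 and 6562 CPM, the 6 markers of inner phalangeal and border (IPhC/IB) cells to 753, 2526 and 2292, the 7 of sulcus and Hensen (ISC/HeC/OSC) cells to 872, 2260 and 2067 and the 7 of Deiters and pillar (DC/PC) cells to 297, 971 and 1132. Their part in the age ratios was not tested.

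In OHC-like cells *Otof* and *Slc17a8* differed most between the ages. *Otof* was at 7.04 [5.88 to 8.50] and 6.25 [5.17 to 7.61] times its P14 level and *Slc17a8* at 4.89 [3.32 to 7.45] and 4.75 [3.14 to 7.39] times. *Cacna1d* was at 1.56 [1.43 to 1.71] and 1.35 [1.21 to 1.49] times, the opposite direction to IHC-like cells, and *Cabp2* at 0.759 [0.700 to 0.822] and 0.782 [0.712 to 0.859] times. *Otof* also differed between libraries in the other cells (5.09 CPM, 8.99 and 19.1), and the part of free RNA in its level in OHC-like cells was not tested.

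**Figure D3:**
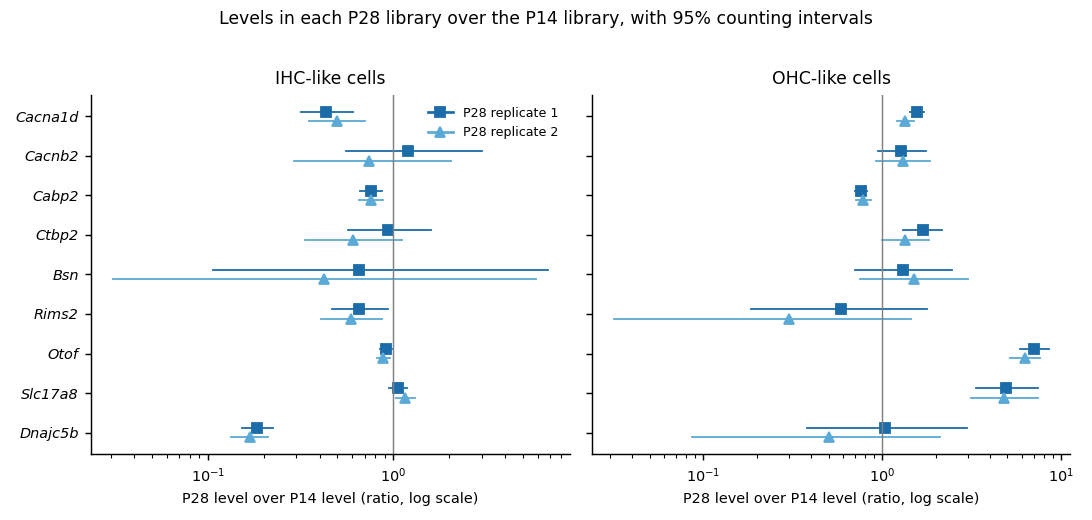
Ratio of the level in each P28 library to the level in the P14 library (logarithmic axis) for the 9 genes in IHC-like and OHC-like cells, with 95% counting intervals. Dnajc5b and Cacna1d lie below 1 in IHC-like cells, where Otof and Slc17a8 lie near 1, and Otof and Slc17a8 lie well above 1 in OHC-like cells.

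Levels also differed with depth inside the IHC-like class, and in the P14 class 12 of 60 cells held most of the UMIs. Cells with at most 3000 genes were set against deeper cells, 48 against 12 at P14, 38 against 74 in P28 replicate 1 and 20 against 56 in P28 replicate 2. *Cacna1d* had 272 against 246, 207 against 102 and 235 against 113 CPM, so the ages lay close in the shallow cells, where the intervals overlapped, and apart in the deeper cells. *Slc17a8* had 846 against 1877, 1241 against 1720 and 2070 against 1825 CPM, and its shallow P14 value was the lowest of these, with an interval that overlapped that of the shallow cells of P28 replicate 1. *Otof* had 2553 against 3624, 4214 against 2943 and 3982 against 2809 CPM, and its order between the ages differed between the shallow and the deeper cells. *Dnajc5b* had 1520 against 887, 336 against 184 and 219 against 173 CPM. The part of depth in the age ratios was not tested.

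The share of cells with a UMI was read after thinning each cell to 1000 UMIs, which kept 31, 99 and 72 IHC-like cells and 260, 365 and 285 OHC-like cells. For *Otof* the share was 93.5%, 94.9% and 93.1% among IHC-like cells, 3.85%, 33.97% and 30.2% among OHC-like cells and 0.496%, 1.24% and 2.50% among the other cells. Unthinned, it was found in 86.7%, 98.2% and 98.7%, 20.2%, 79.3% and 65.96% and 1.06%, 3.17% and 4.89%. At 1000 UMIs *Otof* was thus found in most IHC-like cells and in a minority of OHC-like cells, and in both above the other cells. *Slc17a8* gave shares of 67.7%, 71.7% and 83.3% (IHC-like), 1.54%, 4.66% and 9.12% (OHC-like) and 0.397%, 0.236% and 0.534% (other cells). *Cabp2* was found in 64.5%, 63.6% and 55.6% of IHC-like and 47.7%, 39.5% and 38.6% of OHC-like cells.

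*Dnajc5b* was found in 74.2% [55.4 to 88.1], 14.1% [7.95 to 22.6] and 11.1% [4.92 to 20.7] of thinned IHC-like cells. Unthinned, at the greater depth of P28, its shares were 81.7%, 72.3% and 71.1%. Unthinned OHC-like cells gave 2.89%, 2.45% and 1.05% and the other cells 0.453%, 0.290% and 0.149%, so the gene was found in most P28 IHC-like cells, above both. *Cacna1d* was found in 35.5%, 14.1% and 12.5% of IHC-like, 33.5%, 47.1% and 41.8% of OHC-like and 7.44%, 6.42% and 7.86% of the other cells. For *Rims2* the share was 9.68%, 13.1% and 8.33% among IHC-like cells, while 0, 1 and 0 OHC-like cells held a UMI.

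Members were also counted per cell at 1000 UMIs. IHC-like cells held a median of 4, 3 and 3 of the 9 genes, OHC-like cells 1, 1 and 1 and the other cells 0, 0 and 0. At least 3 of the genes were found in 80.7%, 64.7% and 62.5% of IHC-like, 5%, 13.97% and 11.2% of OHC-like and 0.0992%, 0.0644% and 0.150% of the other cells. No cell held all 9, and the most found in a cell before thinning was 8, in IHC-like cells.

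**Figure D4:**
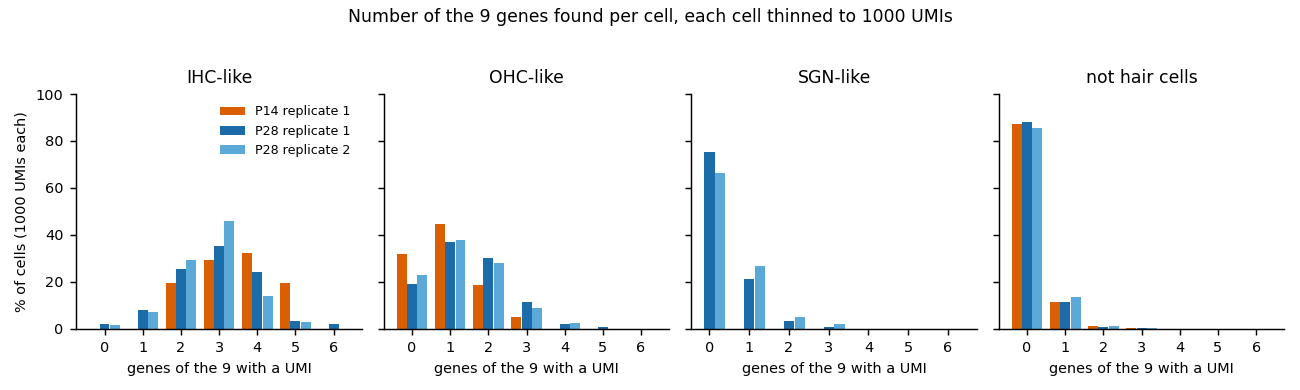
Share of cells (percent) by the number of the 9 genes with a UMI after thinning each cell to 1000 UMIs, for each library and cell group. The medians are 3 to 4 genes in IHC-like cells, 1 in OHC-like cells and 0 in SGN-like and other cells.

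Paralogs of these genes, 28 in all, were read beside them, some of which serve at conventional synapses and some outside synapses. In IHC-like against OHC-like cells 9 paralogs passed the filter, of which 4 were higher and 1 lower (all tested genes 17% and 16.8%), with a median of 0.07. Against SGN-like cells 19 passed, of which 2 were higher and 15 lower in IHC-like cells (all tested genes 27.2% and 34.6%), with a median of -3.34, or -2.66 with the 3 genes at 0 in a class set to the floor.

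Among the vesicular glutamate transporters, *Slc17a7* (VGLUT1) stood at 1172 and 986 CPM and *Slc17a6* (VGLUT2) at 326 and 349 CPM in SGN-like cells. In IHC-like cells the former had 0, 4 and 0 UMIs and the latter 1, 0 and 0. The neuron thus held the pair that the hair cell nearly lacked, and the reverse held for *Slc17a8*. Among the β subunits, *Cacnb4* had 343 and 380.3 CPM in the neurons and only 15.8, 3.10 and 3.36 in IHC-like cells. *Cacnb3* had 205 and 173 CPM in the neurons and 0, 13.4 and 11.8 in IHC-like cells. *Cacna1a*, the pore of the P/Q-type channel of central terminals, had 145 and 139 CPM in the neurons, against 3.96, 8.26 and 5.05 in IHC-like cells.

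In the family of *Cabp2*, *Cabp1* was higher in IHC-like than OHC-like cells by 5.35 (SE 0.35, adjusted p = 5.73e-06) in edgeR and *Cabp7* by 2.81 (SE 0.31, adjusted p = 0.000114). *Cabp1* had 79.2, 87.8 and 82.4 CPM in IHC-like cells and more in SGN-like cells, 475 and 436 CPM. *Cabp7* had 99.04, 93.98 and 85.8 CPM in IHC-like cells and 1 and 0 UMIs in SGN-like cells. Among relatives of *Otof*, *Myof* had 51.5, 48.5 and 55.5 CPM in IHC-like cells and was higher than in OHC-like cells by 3.94 (SE 0.57, adjusted p = 0.000593). *Dysf* had 0, 22 and 6 UMIs in IHC-like cells, and *Fer1l4* and *Fer1l6* had none in hair cells or SGN-like cells.

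Other paralogs were found in all 3 cell types. *Rims3*, a short RIM, had 99.04, 98.1 and 95.9 CPM in IHC-like, 128, 151 and 141 in OHC-like and 131 and 149 in SGN-like cells. *Ctbp1* had 178, 186 and 207, 134, 185 and 179 and 191 and 182 CPM in the same order. *Dnajc5*, the general cysteine string protein, had 166, 164 and 197 CPM in IHC-like and 279 and 265 in SGN-like cells. *Pclo* (Piccolo), a relative of Bassoon, had 51.5, 28.9 and 35.3 CPM in IHC-like and 162 and 175 in SGN-like cells.

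**Figure D5:**
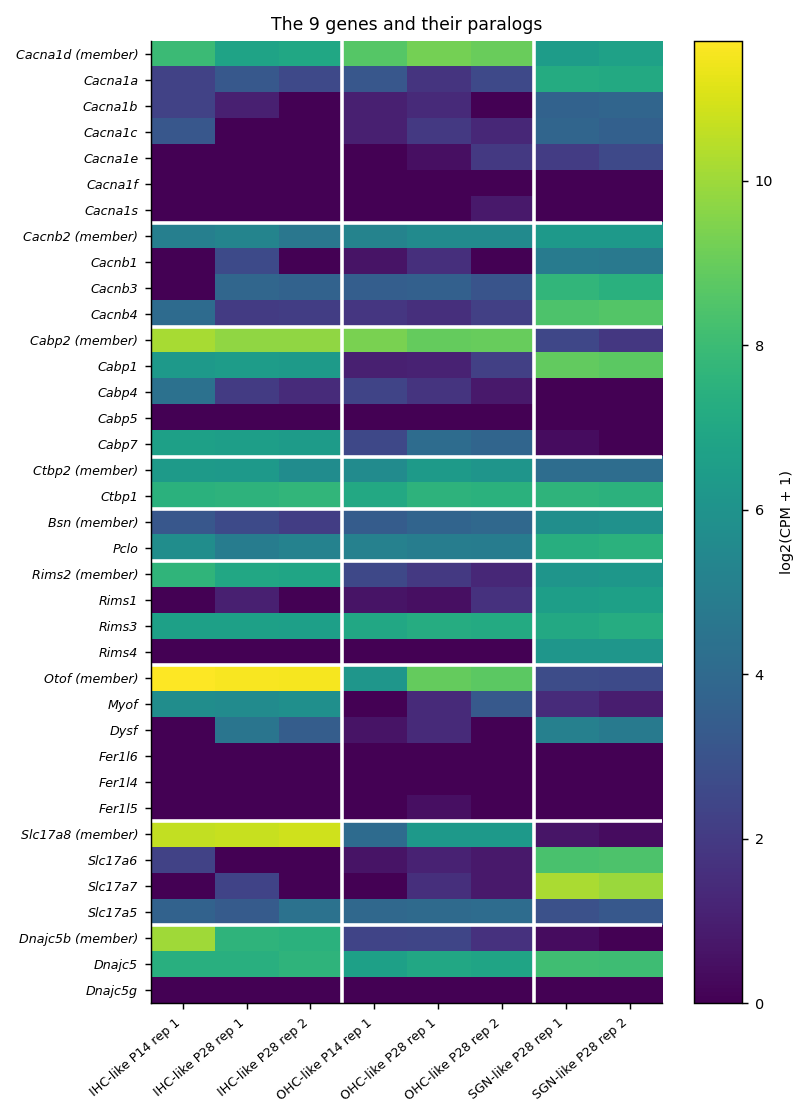
Levels of the 9 genes and their paralogs, grouped by family, in each library's hair cell classes and SGN-like cells, as a colour scale of CPM on a log scale. Slc17a8 is high in IHC-like cells where Slc17a6 and Slc17a7 are low, and the reverse holds in SGN-like cells.

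A wider list of 62 release genes, 59 of them found by symbol, gave the rest of the pathway. In IHC-like against OHC-like cells 37 passed the filter, with 7 higher and 10 lower, beside 17% and 16.8% of all tested genes, and a median of -0.15. *Rab3c*, a vesicle GTPase, had 31.7, 40.3 and 33.6 CPM in IHC-like and 0, 2 and 1 UMIs in OHC-like cells. *Cacna2d2*, an α2δ subunit of the channel, was higher in IHC-like cells by 2.23 (SE 0.34, adjusted p = 0.000785) in edgeR and *Ppfia4*, a liprin of the active zone, by 1.83 (SE 0.18, adjusted p = 6.01e-05). *Cacna2d4*, another α2δ subunit, differed the other way, by -2.01 (SE 0.30, adjusted p = 0.000742), at 11.9, 9.30 and 25.2 CPM, against 52.8, 52.6 and 58.1 for OHC-like cells.

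Genes of vesicle fusion were among those lower in IHC-like cells. *Cplx2*, a complexin, differed by -2.06 (SE 0.27, adjusted p = 0.000285), *Nsf*, the ATPase that takes SNARE complexes apart, by -1.35 (SE 0.16, adjusted p = 0.000142) and *Snap25*, a SNARE protein, by -1.06 (SE 0.18, adjusted p = 0.00171) in edgeR. *Sv2a*, a vesicle glycoprotein, differed by -2.38 (SE 0.53, adjusted p = 0.00646) and *Gipc3*, a deafness gene, by -0.94 (SE 0.16, adjusted p = 0.00149).

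Against SGN-like cells 52 genes of the wider list passed, with 16 higher and 29 lower in IHC-like cells, beside 27.2% and 34.6% of all tested genes, and a median of -1.05, also with the genes at 0 set to the floor. *Syt2*, *Sv2c*, *Sv2b*, *Syn2* and *Rims4* had no UMI in the IHC-like cells of either P28 library, where 3 UMIs are 3.10 and 5.05 CPM. In SGN-like cells *Syt2*, a fast calcium sensor of fusion, had 793 and 731 CPM, *Sv2c* 274 and 272, *Sv2b* 169 and 178 and *Syn2* 123 and 123. *Cplx1*, a complexin, had 1837 and 1789 CPM there and 3.96, 1.03 and 5.05 in IHC-like cells. *Snap25* was found in both, at 27.7, 52.7 and 60.5 CPM in IHC-like and 5691 and 5588 in SGN-like cells. *Gipc3* was higher in IHC-like cells by 6.37 (SE 0.25, adjusted p = 3.59e-13) in edgeR, *Cacna2d4* by 3.62 (SE 0.56, adjusted p = 2.04e-05), *Rab3d* by 2.78 (SE 0.57, adjusted p = 0.000362) and *Snap29* by 2.30 (SE 0.31, adjusted p = 3.49e-06).

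Likeness was measured as Pearson's r of log2(CPM + 10) over 40 sums of 17 named classes, which share libraries and differ in depth, and is a description. The members most alike were *Otof* and *Slc17a8* (0.920), *Otof* and *Cabp2* (0.905) and *Slc17a8* and *Dnajc5b* (0.886), and the least alike were *Slc17a8* and *Bsn* (0.172). Outside the members, the genes most like *Otof* were *E230025N22Rik* (0.942), *Kncn* (0.932) and *Baiap2l2* (0.927). Those most like *Slc17a8* were *Chrna1* (0.959), *D630023F18Rik* (0.925) and *March4* (0.925), and those most like *Cabp2* were *Gm34653* (0.977) and *Lrrc52* (0.974). *Dnajc5b* was most like *Stk32c* (0.961), *Bcas3os1* (0.951) and *Ntf3* (0.944). *Rims2* was most like *Frmpd1* (0.939), *Ldb3* (0.913) and *Sntg2* (0.905), and *Bsn* most like *Gdap1l1* (0.949), *Chga* (0.929) and *Mapk8ip2* (0.928). The nearest genes had lower r for *Cacna1d*, with *Abca5* (0.811), *Sh3rf3* (0.803) and *A930033H14Rik* (0.801), for *Ctbp2*, with *Ppt2* (0.789), *Reep3* (0.780) and *Qpctl* (0.774), and for *Cacnb2*, with *Irx2* (0.785), *Ubr3* (0.772) and *Pcdh7* (0.771).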

How the data were processed

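The authors prepared 10x 3′ libraries (kit v3.1) and deposited UMI counts per gene and barcode. The file headers name Cell Ranger 5.0.1 and the submitters' processing notes Cell Ranger 6.0.1 and mm10. Barcodes with 200 to 6000 genes and at most 15% mitochondrial UMIs were clustered with Seurat 5.3.0 (2000 variable genes without the 99 listed genes, 30 components, resolution 1, P28 libraries integrated), and clusters were named from markers of 24 cell types, so shares may depend on these rebuilt names. Scrublet called 3, 0 and 1 cells as doublets, too few to have worked, and none were removed. Counts summed per class and library were tested with edgeR 4.0.16 (quasi-likelihood, TMM, filterByExpr, Benjamini-Hochberg, threshold 0.05), with the library as a block, since the classes of a library come from the same pooled tissue (correlations of deviations 0.123 to 0.515). The p-values measure how far a class difference varied between libraries of pooled mice. The libraries span both ages. A class difference that changed with age, for which the model has no term, adds to that spread. For IHC-like against SGN-like cells, 8 sums (OHC-like cells included) were fitted. Alternatives were DESeq2 1.42.0, RLE size factors, other filters, cell limits, resolution, thinning, doublet scores, no block and each library left out. Genes named beyond the members were the 6 with the largest fold change in each direction among called listed genes with at least 30 UMIs, plus paralogs described by family. The members and lists were chosen with earlier results of these data known. For likeness the 3 genes of highest r were named per member, of which 1 is not reported here.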

Additional observations from a re-analysis of the deposited data

Results flagged for a closer look

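The ratio of *Ctbp2* in IHC-like over OHC-like cells was 1.68 [0.993 to 2.72] at P14, above 1, and 0.932 [0.706 to 1.22] and 0.756 [0.484 to 1.15] in the P28 libraries, below 1. The difference between the ages was not tested, and the P14 interval reaches just below 1. The ratio of *Bsn* in IHC-like over the other cells was 7.0 at P14 [0.691 to 39.2], an interval that holds 1, from 2, 5 and 2 UMIs in the 3 libraries, and 0.563 and 0.348 at P28, where the other cells include SGN-like cells. That difference was not tested either.

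Barcodes outside the limits on genes and mitochondrial UMIs, which no comparison used, also held UMIs of all 9 genes. Over the 3 libraries they held 3059 UMIs of *Otof*, 806 of *Slc17a8*, 2821 of *Cacna1d*, 403 of *Cacnb2*, 1769 of *Cabp2*, 583 of *Ctbp2*, 127 of *Bsn*, 242 of *Rims2* and 173 of *Dnajc5b*. At P14 the 25 barcodes with over 6000 genes held 626 *Otof* UMIs, 37.2% of its UMIs in all P14 barcodes, and 276 *Slc17a8* UMIs, 34.9%.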

How the results depend on the processing

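Of the fold changes of the members recomputed under the alternatives, 446 kept their direction and their side of the threshold, 23 gained a call, 18 lost it and 5 changed sign. The sign changed for *Ctbp2* between the hair cells without P28 replicate 2 (0.078, adjusted p = 0.908) within a range of -0.32 (without P14) to 0.078 with a library left out, and in cells thinned to 1000 UMIs (0.095, adjusted p = 0.894), for *Bsn* in IHC-like cells (2.51, adjusted p = 0.01) and *Rims2* in OHC-like cells (0.047, adjusted p = 0.94) with SGN-like cells left out of the other cells, which was chosen after seeing the data, and for *Cacnb2* between IHC-like and SGN-like cells under limits of 200 to 3000 genes and 15000 UMIs (0.94, adjusted p = 0.313). The causes were not tested. Levels and shares also depended on the settings. Of the recomputed levels, 517 counted as the same and 176 as moved. Under limits of 200 to 3000 genes and 15000 UMIs, 56 levels moved and 43 did not. The same counts held in cells thinned to 1000 UMIs. Of the shares recomputed at other depths, 138 moved and 60 did not. The brackets around levels cover counting error only, so they leave this dependence out.

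Between IHC-like and OHC-like cells 3210 genes were called. The count was 1695 without the replicate block, 2013 in DESeq2, 1712 with at least 10 UMIs in every sum (which tested 5 members and called 3 higher), 893 under the stricter limits on genes and UMIs, 817 in thinned cells and between 1513 (without P28 replicate 1) and 4920 (without P14) with a library left out. The number of genes tested also differed between settings, so these counts are not shares. Of the 2 members lower there, 1 stayed lower without the replicate block, in DESeq2, with RLE size factors and with at least 10 UMIs. The same held under the stricter limits and in thinned cells. With at least 10 UMIs in every sum *Bsn* was not tested, since IHC-like cells held 2, 5 and 2 of its UMIs. With a library left out the members lower were 1 to 3. Between IHC-like and SGN-like cells 7489 genes were called, against 2811 with at least 10 UMIs (members 2 higher and 0 lower), 1874 under the stricter limits (members 0 lower), 2777 in thinned cells (members 1 lower) and 4326 to 7872 with a library left out. Against the other cells, IHC-like cells gave 4514 calls, against 1855 with at least 10 UMIs, 2974 under the stricter limits, 2328 in thinned cells and 1798 (without P28 replicate 1) to 7776 (without P14) with a library left out. OHC-like cells gave 6995, against 4415 with at least 10 UMIs, 4517 in thinned cells and 2528 (without P28 replicate 1) to 10460 (without P14) with a library left out. The members lower in OHC-like cells were 1, from 0, without the replicate block, with 30% mitochondrial UMIs allowed and without the top 5% of doublet scores, and 0 to 1 with a library left out. Low UMI counts limit *Bsn* in both hair cell classes and *Rims2* and *Dnajc5b* in OHC-like cells, and 1 library limits all values at P14.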
